A study of Mus musculus with 3 samples.

Results

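B cells among the CD45+ tumor-infiltrating leukocytes (TILs) of KP1 tumors were chosen by the raw counts of a few transcripts in each cell barcode, so the levels of those transcripts are a description and no finding. A unique molecular identifier (UMI) is a counted transcript. A barcode was taken as a B cell when Cd79a, Cd79b and Ms4a1 together had at least 3 UMIs, when the T cell receptor and CD3 genes Cd3d, Cd3e, Cd3g, Trac, Trbc1 and Trbc2 together had fewer than 2, when the macrophage genes C1qa, C1qb and C1qc together had fewer than 5, and when Siglech, a plasmacytoid dendritic cell gene, had 0. The gate kept 871 of 71909 barcodes, which had 200 or more genes with a UMI and no more than 20% of UMIs from mitochondrial genes. Of these B cells, mono-IL-10 held 631, IL-10/2-Trikine held 122 and the combination held 118.

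KP1 is a mouse small-cell lung cancer (SCLC) line mutant for Rb and p53 that was grown under the skin. The wild-type hosts were B6129SF1/J mice, an F1 cross bought as juveniles, and each received 500000 tumor cells. Mono-IL-10 is a monomeric form of the cytokine IL-10, which signals mainly through STAT3, and IL-10/2-Trikine is mono-IL-10 joined to an IL-2 mutein that also recruits the IL-2 receptor β chain and so adds STAT5. Mice received 3 µg of cytokine by peritoneal injection on alternate days, starting on day 7, and tumors were taken on day 19. The combination group received IL-10/2-Trikine and the PD-1 blocking antibody RMP1-14, at 200 µg on day 7, day 11, day 15 and day 19. The text of the protocol can also be read as giving the antibody to every group, and the sample titles and treatment labels, which name it in the combination alone, were followed here. No untreated library was analysed here, each group was 1 library, and how many mice went into a library is not stated. The libraries therefore differ in treatment and in everything else that a library differs in, and these cannot be told apart. No test between groups was possible, and values are given for each library, with 95% intervals in parentheses that cover counting error only. These are exact, except that those of a ratio of shares use a normal approximation on the log scale. IL-10/2-Trikine and the combination are together called the IL-10/2-Trikine libraries.

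B cells carry an antibody molecule, the B cell receptor, on their surface, and CD79A and CD79B are its signalling chains. Resting follicular B cells bear IgM and IgD with CD21 (Cr2) and CD23 (Fcer2a), and after antigen they can enter a germinal centre, where their antibody genes are mutated and switched, or become plasma cells, which secrete antibody joined by the J chain (Jchain). In tumors B cells are found as scattered cells, in lymphoid aggregates and as plasma cells, and they also present antigen on MHC class II and respond to interferons and to IL-10.

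The label calls the samples T cells, whereas the sort was on CD45, and the gated barcodes carried the transcripts of B cells. Cd79a, used by the gate, was found in 97.0%, 99.2% and 98.3% of them in mono-IL-10, IL-10/2-Trikine and the combination. Ighm, which the gate did not use, had a UMI in 91.6%, 94.3% and 89.0%, and Igkc in 96.4%, 95.1% and 94.9%. Ptprc, which encodes CD45, had a UMI in 97.0%, 90.2% and 93.2%. At the edge of the gate, the barcodes that passed every exclusion with exactly 2 UMIs of the 3 B cell genes numbered 40, 10 and 4, and those with exactly 3 numbered 17, 5 and 5.

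Depth was similar among the B cells of the 3 libraries, with medians of 3509, 3808 and 4047 UMIs. In sum they held 2800444, 596600 and 577104 UMIs, so a gene with 3 counts corresponds to 1.07 CPM (counts per 1000000 UMIs of the library's B cells) in mono-IL-10, 5.03 in IL-10/2-Trikine and 5.20 in the combination. The exclusions removed 619 of 1250 barcodes over the B cell threshold in mono-IL-10, 170 of 292 in IL-10/2-Trikine and 188 of 306 in the combination. The removed barcodes had medians of 11503, 12017.5 and 8922 UMIs. No B cell barcode was shared between libraries, whereas 137 to 180 of all kept barcodes were shared by each pair. Scrublet, a doublet caller, marked 34, 18 and 4 of the B cells. Its automatic threshold marked 0% of the combination, so the mean of the other thresholds was used there, a choice made after that failure was seen. B cells with at least 5 UMIs of KP1 tumor cell genes, or of the myeloid genes Lyz2, S100a8, S100a9, Chil3 and Csf1r, numbered 15, 11 and 5.

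B cells made up a smaller share of the kept barcodes in both IL-10/2-Trikine libraries than in mono-IL-10. They were 2.84% (2.62 to 3.06) of 22235 barcodes in mono-IL-10, 0.537% (0.446 to 0.641) of 22707 in IL-10/2-Trikine and 0.438% (0.362 to 0.524) of 26967 in the combination. The share in IL-10/2-Trikine was 0.189 times that in mono-IL-10 (0.156 to 0.230), and the share in the combination was 0.154 times it (0.127 to 0.188). The combination's share was 0.814 times that in IL-10/2-Trikine, and the interval of 0.633 to 1.05 includes 1.

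The denominator also differed between the libraries. T cell-gated barcodes, with at least 3 UMIs of the T cell genes, 0 of the B cell genes and fewer than 5 of the C1q genes, were 37.2% of the kept barcodes in mono-IL-10, 58.7% in IL-10/2-Trikine and 49.6% in the combination. Of the barcodes outside that T cell gate, B cells were 4.52% (4.18 to 4.88), 1.30% (1.08 to 1.55) and 0.868% (0.719 to 1.04), so the order held when T cells were set aside. Without the exclusions on other cell types, the shares of barcodes over the B cell threshold were 5.62%, 1.29% and 1.13%.

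**Figure D1:**
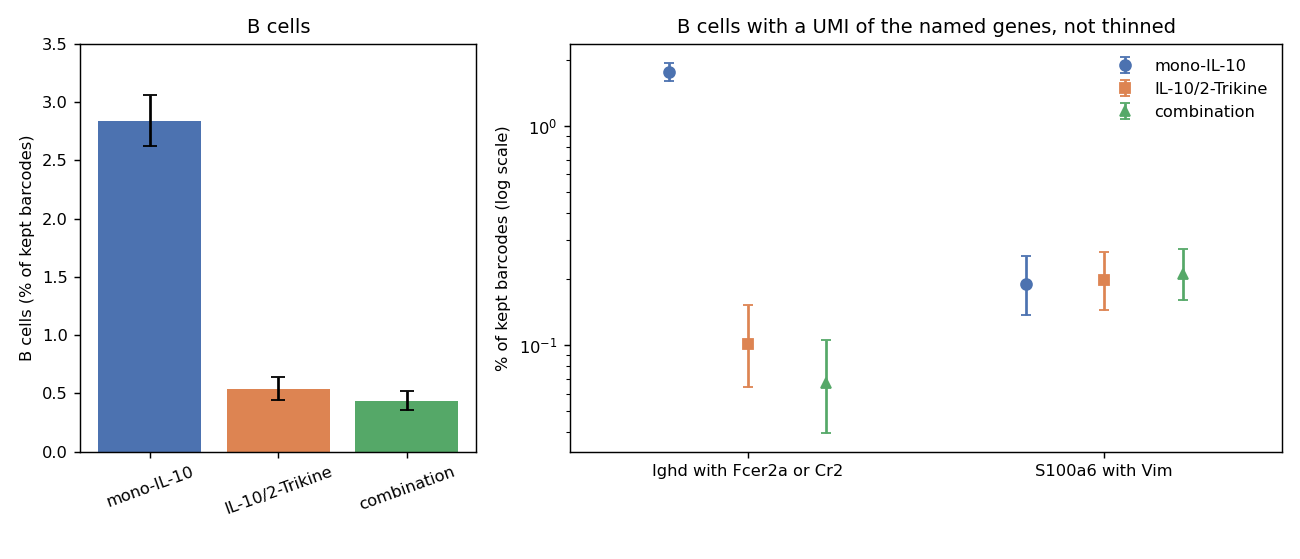
B cells (left), and B cells with a UMI of Ighd and of Fcer2a or Cr2 or of both S100a6 and Vim (right, log scale, not thinned), as a percentage of kept barcodes in each library, with exact 95% intervals that cover counting error only. The mono-IL-10 share of 2.84% lies above 0.537% and 0.438%, and so does its share with Ighd and Fcer2a or Cr2 (1.76% against 0.101% and 0.0667%). The shares with S100a6 and Vim are alike here, without thinning, and were not after it.

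The genes of resting follicular B cells were lower among the B cells of both IL-10/2-Trikine libraries. Shares of cells with a UMI are given after each B cell was thinned to 1000 UMIs, which left out 7 shallower cells in mono-IL-10 and 0 in the other libraries. Ighd, the heavy chain of IgD, was seen in 62.8% (58.9 to 66.6) of 624 B cells in mono-IL-10, 32.8% (24.6 to 41.9) of 122 in IL-10/2-Trikine and 30.5% (22.4 to 39.7) of 118 in the combination. Unthinned, it was seen in 83.0%, 56.6% and 54.2%. In T cell-gated barcodes, which should lack it, Ighd was seen in 0.220%, 0.0227% and 0.0382% after thinning, at unthinned median depths of 4331.5, 5942 and 4450 UMIs, which lay far below the shares in B cells. The mono-IL-10 interval did not overlap the other intervals, and those of the IL-10/2-Trikine libraries overlapped each other.

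Cr2 and Fcer2a were also highest in mono-IL-10. Cr2, the complement receptor CD21, was seen in 27.7% (24.2 to 31.4), 5.74% (2.34 to 11.5) and 6.78% (2.97 to 12.9) of B cells. Fcer2a, the low-affinity IgE receptor CD23, was seen in 15.2% (12.5 to 18.3), 3.28% (0.900 to 8.18) and 3.39% (0.931 to 8.45). B cells with Ighd and either of them were 26.1%, 4.10% and 4.24%. As a share of all kept barcodes, without thinning, such cells were 1.76%, 0.101% and 0.0667%.

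A different set of genes was seen more often in B cells of the IL-10/2-Trikine libraries. S100a6, a calcium-binding protein, was seen in 5.61% (3.94 to 7.71), 36.1% (27.6 to 45.3) and 36.4% (27.8 to 45.8) of B cells, and Vim, the intermediate filament vimentin, in 19.2% (16.2 to 22.5), 43.4% (34.5 to 52.7) and 48.3% (39.0 to 57.7). Both were carried together by 2.24% (1.23 to 3.74), 27.0% (19.4 to 35.8) and 28.0% (20.1 to 37.0). These 2 genes are common in other leukocytes, with S100a6 in 42.7%, 64.4% and 56.6% of T cell-gated barcodes, and the part of free RNA in the B cell shares was not tested. Counted over all kept barcodes without thinning, B cells with both were 0.189%, 0.198% and 0.211%, alike in the 3 libraries. The unthinned share of B cells with Ighd and Cr2 or Fcer2a was not alike. After thinning, B cells with both S100a6 and Vim numbered 14, 33 and 33, among 22235, 22707 and 26967 kept barcodes. Their likeness over all barcodes thus held only without thinning.

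Ccr7, the receptor that guides lymphocytes to the T cell zone, was seen in 15.1% (12.3 to 18.1) of B cells in mono-IL-10, 34.4% (26.1 to 43.6) in IL-10/2-Trikine and 33.9% (25.4 to 43.2) in the combination. Zbtb32, a repressor found in memory and B1 cells, was seen in 0.481% (0.0993 to 1.40), 5.74% (2.34 to 11.5) and 9.32% (4.75 to 16.1), beside 0.977%, 1.61% and 1.06% of T cell-gated barcodes and 0.178%, 0.0704% and 0.150% of C1q-gated barcodes, those with at least 5 UMIs of the C1q genes, 0 of the B cell genes and fewer than 2 of the T cell genes. Among the other genes of memory B cells, Cd80 was found in 16, 13 and 20 B cells, with levels of 7.86, 40.2 and 64.1 CPM. Only 1 of the 7 genes of the memory and age-associated list, Fcrl5, reached the mean of 50 CPM that was asked of a measured gene, at 93.2, 126 and 227 CPM. None of the 4 genes of the B1 list (Bhlhe41, Zbtb32, Cd5 and Spn) did, and Cd5 was found in 10, 2 and 2 cells.

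**Figure D2:**
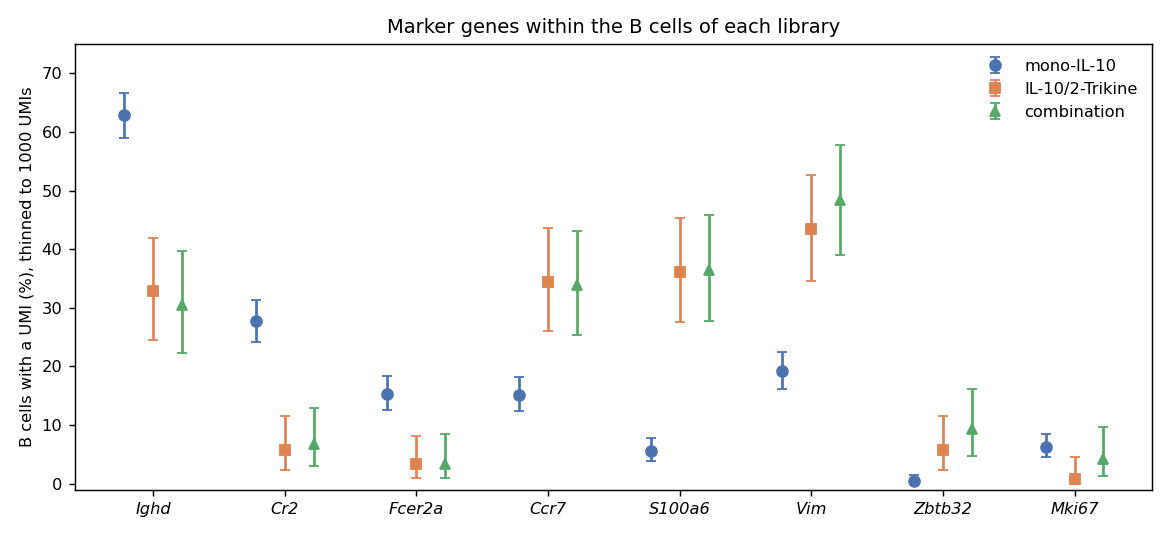
Percentage of B cells with at least 1 UMI of each gene after thinning to 1000 UMIs, in each library, with exact 95% intervals that cover counting error only. Ighd, Cr2 and Fcer2a are highest in mono-IL-10 (62.8%, 27.7% and 15.2%), and S100a6 and Vim are higher in both IL-10/2-Trikine libraries.

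Germinal centre transcripts had their highest summed level in the mono-IL-10 library. The 8 genes of the list summed to 448.5 CPM there, with 8 of 8 seen, to 109 in IL-10/2-Trikine, with 5 seen, and to 120 in the combination, with 4 seen. Rgs13, a regulator of G protein signalling in germinal centre B cells, was found in 40 mono-IL-10 cells, Gcsam in 27 and Mybl1 in 48, and each in 0 cells of the other libraries, where a count of 0 allows up to 2.46% and 2.54%. After thinning, B cells with at least 2 of the 8 germinal centre genes were 5.77% (4.07 to 7.90), 0.820% (0.0207 to 4.48) and 0.847% (0.0215 to 4.63), and unthinned 15.2%, 6.56% and 5.08%. In T cell-gated barcodes that gate was met by 0.745%, 0.371% and 0.489% after thinning and by 13.2%, 11.0% and 10.9% unthinned. The intervals of the thinned B cell shares in the IL-10/2-Trikine libraries include that background, and without thinning their B cell shares lay below it.

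The levels of 2 cycling genes were lower among B cells of both IL-10/2-Trikine libraries, while the intervals of the share of cells with Mki67 overlapped in all 3 libraries, those of the mono-IL-10 and IL-10/2-Trikine cells barely. After thinning, Mki67 was seen in 6.25% (4.48 to 8.45), 0.820% (0.0207 to 4.48) and 4.24% (1.39 to 9.61) of B cells, and unthinned in 12.2%, 4.92% and 10.2%. As a level, Mki67, a marker of cycling cells, stood at 177 CPM in mono-IL-10, 62.0 in IL-10/2-Trikine and 29.5 in the combination, and Top2a, a topoisomerase of dividing cells, at 167, 72.1 and 26.0. In all other kept barcodes Mki67 was higher in IL-10/2-Trikine than in mono-IL-10, with a log2 ratio of 0.84 beside -1.51 (-2.04 to -1.03) in B cells. In IL-10/2-Trikine the Mki67 counts came from 6 B cells. Without the cells high in Jchain, described next, its level there was 9.03 CPM, beside 179 in mono-IL-10 and 31.2 in the combination. Leaving out the B cells with other lineages' transcripts gave 184, 10.1 and 33.4 CPM. Without class-switched and plasma cell-gated cells Mki67 was at 94.3, 9.30 and 29.6 CPM, and in cells with an Ighd UMI at 50.1, 14.9 and 19.2, and 390 of its 496 UMIs in mono-IL-10 came from the cells without one. Of the 16 genes of the G2/M list Mki67 and Top2a were measured, and of the 18 of the S phase list Pcna, Mcm4, Dut and Slbp were, with log2 ratios of -0.38 to -0.74 for IL-10/2-Trikine over mono-IL-10.

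Immunoglobulin transcripts took a larger part of the B cell counts in the IL-10/2-Trikine library, and a few cells held most of them. They were 3.69% of B cell UMIs in mono-IL-10, 15.6% in IL-10/2-Trikine and 8.44% in the combination. B cells with at least 10 UMIs of Jchain and at least 50 of the heavy chain constant genes, called Jchain-high here, numbered 15, 11 and 4, or 2.38% (1.34 to 3.89), 9.02% (4.59 to 15.6) and 3.39% (0.931 to 8.45) of the B cells. These cells held 73.0%, 93.8% and 89.7% of the immunoglobulin UMIs and 6.13%, 25.8% and 11.3% of all B cell UMIs. Without them, immunoglobulin was 1.06%, 1.31% and 0.976% of the counts. B cells with any Jchain UMI after thinning were 5.45%, 9.02% and 5.08%, and without called doublets 5.42%, 0.962% and 3.51%. As a share of all kept barcodes, without thinning, B cells with a Jchain UMI were 0.247%, 0.0528% and 0.0371%, so highest in mono-IL-10.

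The gate was made on Cd79a, Cd79b and Ms4a1, which plasma cells can lose, so these counts are of plasma cells that passed it. Over all kept barcodes, gated or not, Jchain-high barcodes numbered 38, 29 and 14. The class of the antibody differed among the Jchain-high B cells. Ighm, the heavy chain of IgM, was the leading heavy chain in 7 of 15 cells in mono-IL-10, 8 of 11 in IL-10/2-Trikine and 3 of 4 in the combination. Ighg2c led in 6, 2 and 0 cells, Ighg1 in 2, 0 and 0, Ighg3 in 0, 1 and 0, and Igha in 0, 0 and 1.

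Single cells set the levels of several antibody genes. Ighg3, an IgG heavy chain, stood at 66.4, 3789.8 and 107 CPM, and 1 cell held 98.1% of its counts in IL-10/2-Trikine. Iglc1, a λ light chain, stood at 338, 10198 and 178 CPM, and 1 cell held 94.2% there. Igha, the heavy chain of IgA, stood at 4.64, 26.8 and 4483 CPM, and 1 cell held 99.6% in the combination. Ighg1 stood at 1758 CPM in mono-IL-10, where 1 cell held 59.2%, and at 0 and 20.8 CPM in the others. The highest levels of Ighg3, Iglc1 and Igha thus rest on 1 cell each. Without the Jchain-high cells Ighg1 was at 22.8, 0 and 23.4 CPM.

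Ighm itself stood at 2541, 30370.4 and 19905 CPM in all B cells. Without the Jchain-high cells it was 1904, 3368 and 2416 CPM, and within B cells that had an Ighd UMI it was 2268, 2429 and 2407. Its difference for IL-10/2-Trikine over mono-IL-10 thus shrank from a log2 ratio of 3.58 (3.54 to 3.62) to 0.10 (-0.02 to 0.22) in cells with Ighd. Cells whose light chain counts were mostly λ were 6.50%, 14.8% and 8.47% of B cells.

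**Figure D3:**
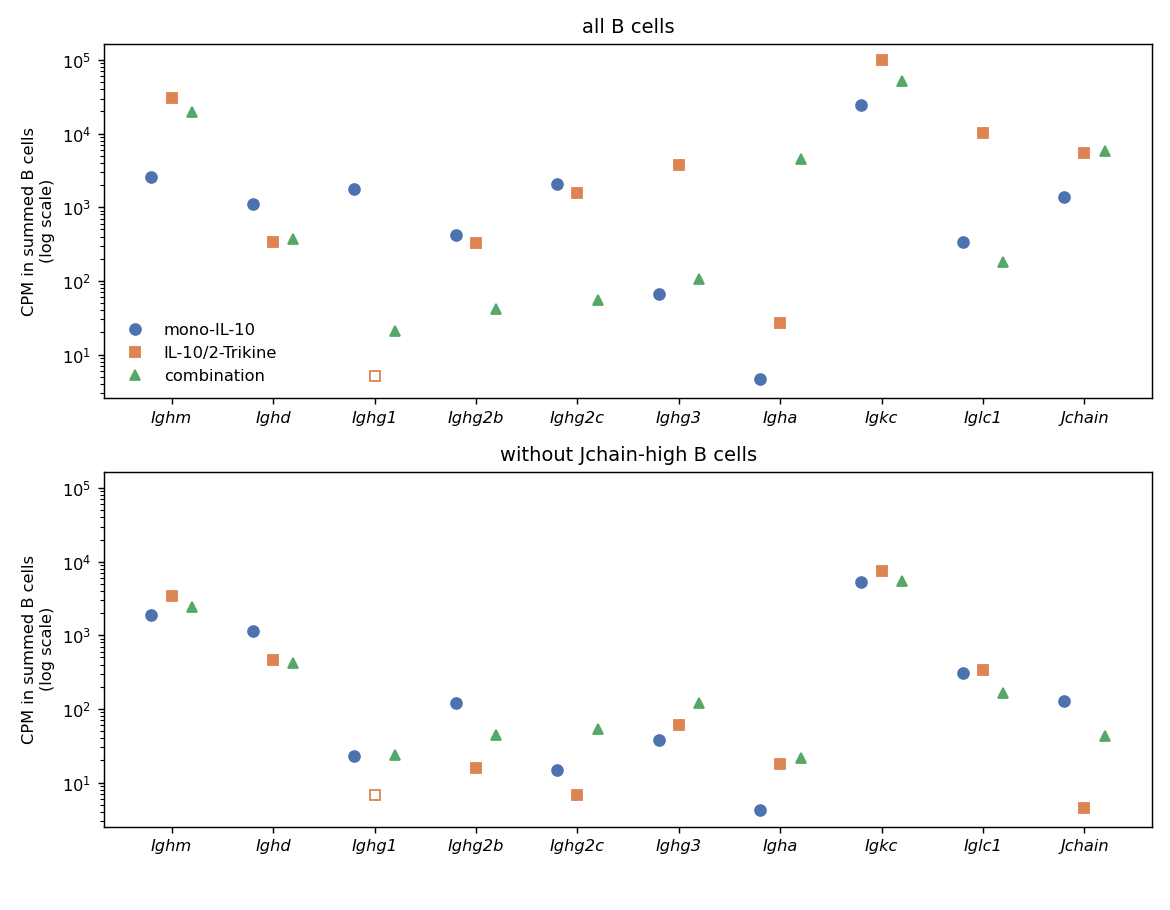
CPM of immunoglobulin genes and Jchain in the summed B cells of each library on a log scale, for all B cells (top) and without the Jchain-high B cells (bottom). Open symbols mark a count of 0, drawn at the level of 3 counts. Ighm is highest in IL-10/2-Trikine in both panels, at 30370.4 and 3368 CPM, and Ighd is highest in mono-IL-10 in both.

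The plasma cell list stood higher in IL-10/2-Trikine than in mono-IL-10, and that count was lost without the Jchain-high cells. Of its 8 measured genes 4 were at least 2-fold higher (Jchain, Xbp1, Mzb1 and Creld2) and 0 lower, beside 3.31% and 7.7% of the 3325 measured genes. Xbp1, a factor that builds the secretory apparatus, stood at 105, 297 and 78.0 CPM, and Creld2, a chaperone of the endoplasmic reticulum, at 52.8, 260 and 88.4. Without the Jchain-high cells Creld2 was at 27.4, 24.8 and 31.2 CPM, and the number of genes of the list past 2-fold was 1. Without the barcodes that Scrublet called doublets it was 0. B cells with at least 4 of the list's 12 genes after thinning were 1.92% (0.998 to 3.34), 8.20% (4.0 to 14.6) and 3.39% (0.931 to 8.45), and without called doublets they were 2.03%, 1.92% and 2.63%, so the order of mono-IL-10 and IL-10/2-Trikine turned.

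Clustering all 871 B cells gave 8 clusters, given here as a description since the same genes define and describe them. Cluster 1 (269, 3 and 2 cells) and cluster 2 (192, 2 and 2 cells) were nearly all from mono-IL-10, with Ighd in 97.1% and 93.9% of their cells and Cr2 in 48.9% and 73.5%. Hspa1b and Hspa1a, heat shock genes, led cluster 1, and Ifit3, Ifit2 and Mx1, type I interferon-stimulated genes, led cluster 2. Cluster 3 (39, 45 and 62 cells) had Ccr7 in 75.3% of its cells and Stat4 among its leading genes. Cluster 4 (18, 50 and 42 cells) was led by S100a6, Lmna and Zbtb32, with S100a6 in 80.0% of its cells against 6.57% in cluster 1.

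The small clusters held other states. Cluster 5 (50, 0 and 0 cells) carried all 8 germinal centre genes above the other clusters and is germinal centre-like. Cluster 8 (11, 12 and 4 cells) carried 10 of the 12 plasma cell genes and is plasma cell-like. Cluster 6 (23, 9 and 6 cells) was led by the myeloid genes Cxcl2 and Lyz2, and cluster 7 (29, 1 and 0 cells) by Mycl and Nfib, both remaining unnamed. A cluster that comes mostly from 1 library may be that library rather than a type.

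Across all genes, 3325 had a mean of at least 50 CPM over the 3 libraries. No kind of gene was left out of this number. Mitochondrial, ribosomal, immunoglobulin variable, hemoglobin, sex-linked and gate genes were left out only of the ranking that named genes. For IL-10/2-Trikine over mono-IL-10, 110 were at least 2-fold higher (3.31%) and 256 at least 2-fold lower (7.7%), or 11% in either direction. Over all measured genes the log2 ratios had a median of -0.24, which was -0.05 with immunoglobulin genes out of the total, and list medians are given beside it. With trimmed mean of M values (TMM) factors the split was 175 higher and 124 lower, with median-of-ratios factors 183 and 120, and with immunoglobulin genes out of the total 170 and 176, so which direction held more genes depended on the scaling. Without the Jchain-high cells it was 120 and 153, with a median of -0.05.

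Outside the antibody genes, the genes that most exceeded counting error in IL-10/2-Trikine included S100a6 at 124, 1644 and 2007 CPM, a log2 ratio of 3.73 (3.55 to 3.91) over mono-IL-10. The ratio was 0.86 in all other barcodes of these libraries. Monocyte genes, which include some that plasma cells share, moved with it in B cells: their 5 genes summed to 1041, 2177 and 2551 CPM. Without the B cells that had other lineages' transcripts S100a6 was at 84.2, 1733 and 2194 CPM, so its difference was as large. In empty droplets S100a6 was at 393, 1011 and 979 CPM, above the B cells in mono-IL-10 and below them in the others, and the part of free RNA was not tested. Lmna, the nuclear lamina protein lamin A/C, stood at 11.4, 109 and 158 CPM, and S100a4, a calcium-binding protein of motile cells, at 45.4, 313 and 328, beside 38.9, 45.6 and 60.7 (Lmna) and 173, 274 and 272 (S100a4) in empty droplets. Both IL-10/2-Trikine libraries were above mono-IL-10 for each of the 3 genes. Atf3, a stress-induced transcription factor, stood at 28.6, 189 and 151 CPM, a log2 ratio of 2.73 (2.30 to 3.16), whereas in the other barcodes it was -1.12.

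Socs1, the feedback inhibitor of cytokine and interferon receptors, stood at 30.0 CPM (55 cells) in mono-IL-10, 176 (51 cells) in IL-10/2-Trikine and 211 (50 cells) in the combination. In empty droplets it was at 51.9, 89.0 and 102 CPM. Its log2 ratio was 2.55 (2.13 to 2.98) for IL-10/2-Trikine over mono-IL-10, and 0.62 in the other barcodes. Ly6c2, which is also a gene of monocytes and plasma cells, stood at 41.4, 610 and 180 CPM, and without the Jchain-high cells at 14.8, 113 and 41.0. Ly6k was at 11.1, 131 and 17.3 CPM, so here the combination lay near mono-IL-10.

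Among the genes lower in IL-10/2-Trikine, Cr2 stood at 368, 36.9 and 67.6 CPM, a log2 ratio of -3.32 (-4.0 to -2.71), and Fcer2a at 144, 30.2 and 10.4, a ratio of -2.25 (-3.02 to -1.58). Hspa1b, an inducible HSP70 chaperone, stood at 142 CPM (133 cells), 1.68 (1 cell) and 10.4 (4 cells). Its log2 ratio for IL-10/2-Trikine over mono-IL-10 was -6.40 (-11.7 to -3.92). It was also lower outside the B cells, with ratios of -1.69 in all other barcodes and -1.60 in empty droplets. Ighg1 had 4923 UMIs in mono-IL-10 and 0 in IL-10/2-Trikine, a ratio of at most 0.00286 against 3 counts in the library. The other genes named by the ranking were Klhl6, Mprip, Pxdc1, Parp8, A330040F15Rik and Evl, with log2 ratios from -2.48 to -2.12. Klhl6, which takes part in B cell receptor signalling and germinal centre formation, stood at 187, 35.2 and 65.8 CPM.

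**Figure D4:**
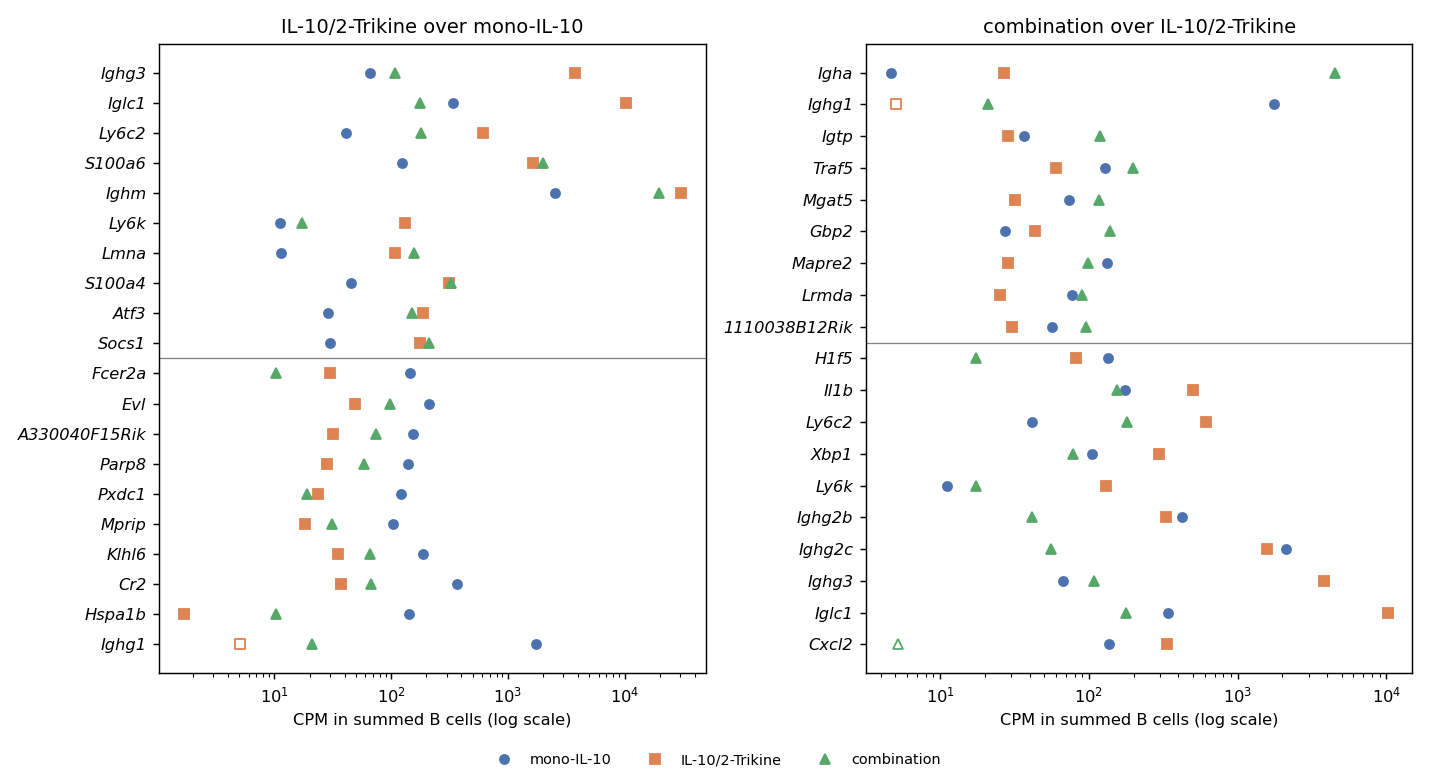
CPM in the summed B cells of each library (log scale) for the 10 genes ranked highest (above the line) and the 10 ranked lowest (below it) in each comparison, leaving out 1 gene that is not reported here. Open symbols mark a count of 0, drawn at the level of 3 counts. S100a6, Lmna, S100a4, Atf3 and Socs1 are close in the IL-10/2-Trikine libraries and lower in mono-IL-10, while Cr2 and Fcer2a are highest in mono-IL-10.

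The signalling genes of the B cell receptor stood lower in IL-10/2-Trikine. Of 22 measured genes 0 were at least 2-fold higher and 5 at least 2-fold lower (among them Cr2, Cd72, Blnk and Ptpn6), beside 3.31% and 7.7% of all genes, with a median log2 ratio of -0.67 beside -0.24 for all genes, and -0.43 with TMM factors. Blnk, the adaptor that links the receptor kinase to calcium signalling, stood at 654, 266 and 319 CPM. Cd72, an inhibitory coreceptor, stood at 459, 134 and 168 CPM. Cd81, a partner of Cr2 in the coreceptor, was at 135, 158 and 156 CPM, less than 2-fold apart.

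Of 12 measured transcription factors of the B lineage 0 were at least 2-fold higher and 1 at least 2-fold lower, a share near the 7.7% of all genes, with a median of -0.67 beside -0.24. That gene was Bcl11a, a factor of early lymphocyte development, at 302, 98.9 and 107 CPM. Pax5, which holds B cell identity, stood at 589, 297 and 367 CPM, a log2 ratio of -0.99 (-1.22 to -0.76), and Ebf1, its partner, at 2325, 1710 and 1958. These levels include the Jchain-high cells, which held 6.13%, 25.8% and 11.3% of all B cell UMIs. The part of those cells in the levels of Pax5, Ebf1 and Bcl11a was not tested. Of the 7 measured genes of the naive and follicular list, Ighd, Fcer2a and Fcmr were at least 2-fold lower and Ccr7 at least 2-fold higher, beside 7.7% and 3.31% of all genes. Fcmr, the receptor for IgM, stood at 348, 116 and 93.6 CPM.

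Of 15 measured genes switched on by antigen and cytokine signals 2 were at least 2-fold higher in IL-10/2-Trikine (Nr4a1 and Ier2) and 1 lower (Jun), beside 3.31% and 7.7% of all genes, with a median of 0.08 beside -0.24. Nr4a1, an immediate target of the B cell receptor, stood at 119, 382 and 348 CPM, a log2 ratio of 1.68 (1.43 to 1.93), whereas in the other barcodes it was -0.28. Jun, a part of the AP-1 factor, stood at 352, 152 and 208 CPM. Cd44, an adhesion receptor of activated lymphocytes, was at 103, 188 and 288 CPM, under 2-fold higher in IL-10/2-Trikine and over 2-fold higher in the combination than in mono-IL-10.

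Il10ra and Il2rb, receptor chains for IL-10 and IL-2, were lower in B cells than in empty droplets (barcodes of 10 to 100 UMIs) in every library, and the part of free RNA in their values was not tested. Il10ra, the chain that binds IL-10, stood at 79.6 CPM (174 cells) in mono-IL-10, 40.2 (20 cells) in IL-10/2-Trikine and 65.8 (29 cells) in the combination, and Il10rb, its partner, at 62.1, 82.1 and 65.8. In empty droplets Il10ra was at 142, 50.4 and 77.5 CPM. Il2rb, which the Trikine recruits, was at 5.71 CPM (13 cells), 25.1 (10 cells) and 10.4 (6 cells), beside 112, 269 and 269 in empty droplets. The 8 NK cell genes moved with it in B cells, at 155, 582 and 225 CPM in sum, and their part in it was not tested. Il2rg, the common γ chain, stood at 229, 211 and 258 CPM. Of the 10 measured genes of the cytokine and survival receptor list 0 were past 2-fold for IL-10/2-Trikine over mono-IL-10, beside 11% of all genes. The list's median was -0.11 beside -0.24 for all genes. With TMM factors the list's median was 0.12.

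Downstream of those receptors, the JAK-STAT list had 2 of 10 measured genes at least 2-fold higher (Socs1 and Pim1) and 1 lower (Jak1), beside 3.31% and 7.7% of all genes, with a median of 0.13 beside -0.24. Pim1, a kinase gene induced by STAT3 and STAT5, stood at 161, 484 and 468 CPM, a log2 ratio of 1.59 (1.37 to 1.8). That ratio was 2.24 (1.91 to 2.56) in cells with an Ighd UMI and 0.50 (0.20 to 0.80) in cells without one. Jak1 stood at 490, 218 and 359 CPM. Cish, a STAT5 target under the 50 CPM asked, had 1.79, 23.5 and 10.4 CPM from 5, 10 and 6 cells. Il10, the cytokine that regulatory B cells make, stood at 7.86, 82.1 and 26.0 CPM from 14, 8 and 4 cells.

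Antigen presentation genes differed by class. Of 10 measured MHC class II genes 0 were higher and 2 lower past 2-fold in IL-10/2-Trikine (H2-Oa and Ciita), beside 7.7% of all genes lower. The median was -0.59 beside -0.24 for all genes, and -0.35 with TMM factors. Ciita, the master regulator of the class, stood at 163, 46.9 and 62.4 CPM, and H2-Aa, a class II chain, at 4711, 3332 and 4183. Without the Jchain-high cells H2-Aa was at 4912, 4461 and 4713 CPM, a log2 ratio of -0.14 for IL-10/2-Trikine over mono-IL-10. Of 12 measured MHC class I genes 0 were past 2-fold in either direction, beside 11% of all genes. Their median was 0.05 beside -0.24 for all genes. B2m, the light chain of class I, stood at 2149, 3245 and 2719 CPM.

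Of 10 measured homing genes, Ccr7 was at least 2-fold higher and Gpr183 at least 2-fold lower in IL-10/2-Trikine, beside 3.31% and 7.7% of all genes, with a median of -0.02 beside -0.24 that was 0.22 with TMM factors. Gpr183, the oxysterol receptor EBI2 that places B cells in the outer follicle, stood at 438.5, 201 and 213 CPM. S1pr1, which lets lymphocytes leave tissue, stood at 119, 149 and 217 CPM. Ltb, lymphotoxin β, which maintains follicle architecture, was lower in both IL-10/2-Trikine libraries, at 281, 83.8 and 121 CPM.

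The comparison of the combination with IL-10/2-Trikine asks what anti-PD-1 adds to the Trikine. For the combination over IL-10/2-Trikine, 69 genes were at least 2-fold higher (2.08%) and 48 at least 2-fold lower (1.44%), or 3.52% in either direction, with a median of 0.15. With TMM factors the split was 35 and 75, with median-of-ratios factors 38 and 74, and with immunoglobulin genes out of the total 47 and 75. For the combination over mono-IL-10 the counts were 109 (3.28%) and 127 (3.82%), or 7.1%, with a median of -0.10, and 133 and 96 with median-of-ratios factors. With each B cell thinned to 1000 UMIs, 14.0% of genes were past 2-fold in either direction for the combination over IL-10/2-Trikine, 13.7% for IL-10/2-Trikine over mono-IL-10 and 12.4% for the combination over mono-IL-10, so that the combination over IL-10/2-Trikine had the fewest such genes without thinning and the most with it. Thinning left 624000, 122000 and 118000 UMIs in mono-IL-10, IL-10/2-Trikine and the combination. Counting error was thus larger with it, most so between the IL-10/2-Trikine libraries. Its part in this change of order was not tested. The comparisons share libraries, so each is given with its own values.

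Several interferon-γ-induced genes stood higher in the combination. Of the 17 genes of that list 8 were measured, and 5 were at least 2-fold higher in the combination than in IL-10/2-Trikine (Gbp2, Gbp3, Gbp7, Igtp and Irgm1) and 0 lower, beside 2.08% and 1.44% of all genes, with a median of 1.17 beside 0.15 for all genes. All 8 lay above 0. With TMM factors 4 were at least 2-fold higher, with a median of 1.01, and without called doublets 3 were. Against mono-IL-10, 7 of 8 were at least 2-fold higher, beside 3.28% of all genes, with a median of 1.79 beside -0.10. The exception was Cd274, the PD-1 ligand PD-L1, at 262, 173 and 255 CPM. Left out for low counts were 9 genes, among them Iigp1 at 26.1, 3.35 and 102 CPM and Cxcl10 at 42.5, 6.70 and 8.66.

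The guanylate-binding proteins (Gbp) and immunity-related GTPases (Igtp, Irgm1, Iigp1) coat the membranes around intracellular pathogens and are strongly induced by interferon-γ. Gbp2 stood at 27.1 CPM (45 cells) in mono-IL-10, 43.6 (18 cells) in IL-10/2-Trikine and 139 (38 cells) in the combination, and its log2 ratio over IL-10/2-Trikine in the combination was 1.67 (1.02 to 2.37). Igtp stood at 36.4, 28.5 and 120 CPM, a ratio of 2.07 (1.29 to 2.93). Gbp7 stood at 48.9, 75.4 and 180 CPM, a ratio of 1.26 (0.74 to 1.79), and Irgm1 at 51.4, 46.9 and 125, a ratio of 1.41 (0.76 to 2.10). In each of these the combination was the highest library. In empty droplets the combination was highest too, with Gbp2 at 102, 73.3 and 161 CPM, Igtp at 111, 82.9 and 175, Gbp7 at 129, 129 and 170 and Irgm1 at 60.9, 40.5 and 64.8. Gbp2 and Igtp thus lay below the empty droplets in every library, and Irgm1 above them in IL-10/2-Trikine and the combination. The part of free RNA in these differences was not tested.

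Other barcodes of the combination moved the same way. For the 8 genes, the log2 ratio for the combination over IL-10/2-Trikine in all other kept barcodes ran from 0.38 for Irf1 to 1.04 for Gbp2. Irf1 and Socs1 stood high in IL-10/2-Trikine as well. Irf1, an interferon-induced factor, stood at 106, 313 and 385 CPM, a log2 ratio of 1.56 (1.29 to 1.83) for IL-10/2-Trikine over mono-IL-10 and of 0.30 (0.01 to 0.58) for the combination over IL-10/2-Trikine. Irf1 and Socs1 were the 2 genes of the list at least 2-fold higher for IL-10/2-Trikine over mono-IL-10, beside 3.31% of all genes. The list's median was 0.55 beside -0.24 for all genes. It was -0.13 when genes down to 20 CPM were taken in.

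The promoters of 7 of the 8 measured genes, those with a match to either motif, are printed to show where the motifs lie. Interferon regulatory and STAT factors bind the interferon-stimulated response element (ISRE), whose core was searched as GAAA, any 2 bases and GAAA again, and STAT dimers bind the gamma-activated site (GAS), searched as TTCNNNGAA, on both strands of the window from 250 bases before to 50 after each start. The sequences are from RefSeq on GRCm38.p6, they are written 5′ to 3′ on the strand of the gene, and capitals mark the matches, which overlap in Gbp3, Irgm1 and Socs1.
Gbp2, chr3:142620592-142620641 (+): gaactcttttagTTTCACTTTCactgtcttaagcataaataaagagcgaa
Gbp3, chr3:142559987-142560036 (+): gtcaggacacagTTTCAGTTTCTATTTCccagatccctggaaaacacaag
Gbp7, chr3:142530218-142530304 (+): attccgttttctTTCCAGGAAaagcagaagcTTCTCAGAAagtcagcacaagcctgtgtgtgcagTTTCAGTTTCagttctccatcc
Igtp, chr11:58199499-58199548 (+): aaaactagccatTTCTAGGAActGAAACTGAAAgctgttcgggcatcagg
Irgm1, chr11:48871421-48871470 (-): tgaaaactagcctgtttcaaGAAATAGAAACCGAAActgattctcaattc
Irf1, chr11:53769912-53769961 (+): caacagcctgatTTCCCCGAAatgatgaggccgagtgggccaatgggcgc
Socs1, chr16:10785582-10785631 (-): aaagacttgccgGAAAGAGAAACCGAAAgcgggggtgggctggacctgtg

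The ISRE core was found in a window of 6 of the 8 measured genes (Gbp2, Gbp3, Gbp7, Igtp, Irgm1 and Socs1) and the GAS in 3 (Gbp7, Igtp and Irf1). Of the 27025 genes with a window, 3.99% held the ISRE core and 9.55% the GAS. Irf1, which was high in both IL-10/2-Trikine libraries, held a GAS and no ISRE core in these letters, whereas Socs1, with the same pattern of levels, held the ISRE core and no GAS. Of the measured type I genes 6 had a window, and 5 of those held the ISRE core, among them Trim30a.
Trim30a, chr7:104465194-104465243 (-): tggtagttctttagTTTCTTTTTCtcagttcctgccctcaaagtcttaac
A match is a description of the sequence and shows neither binding nor a cause of the levels.

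**Figure D5:**
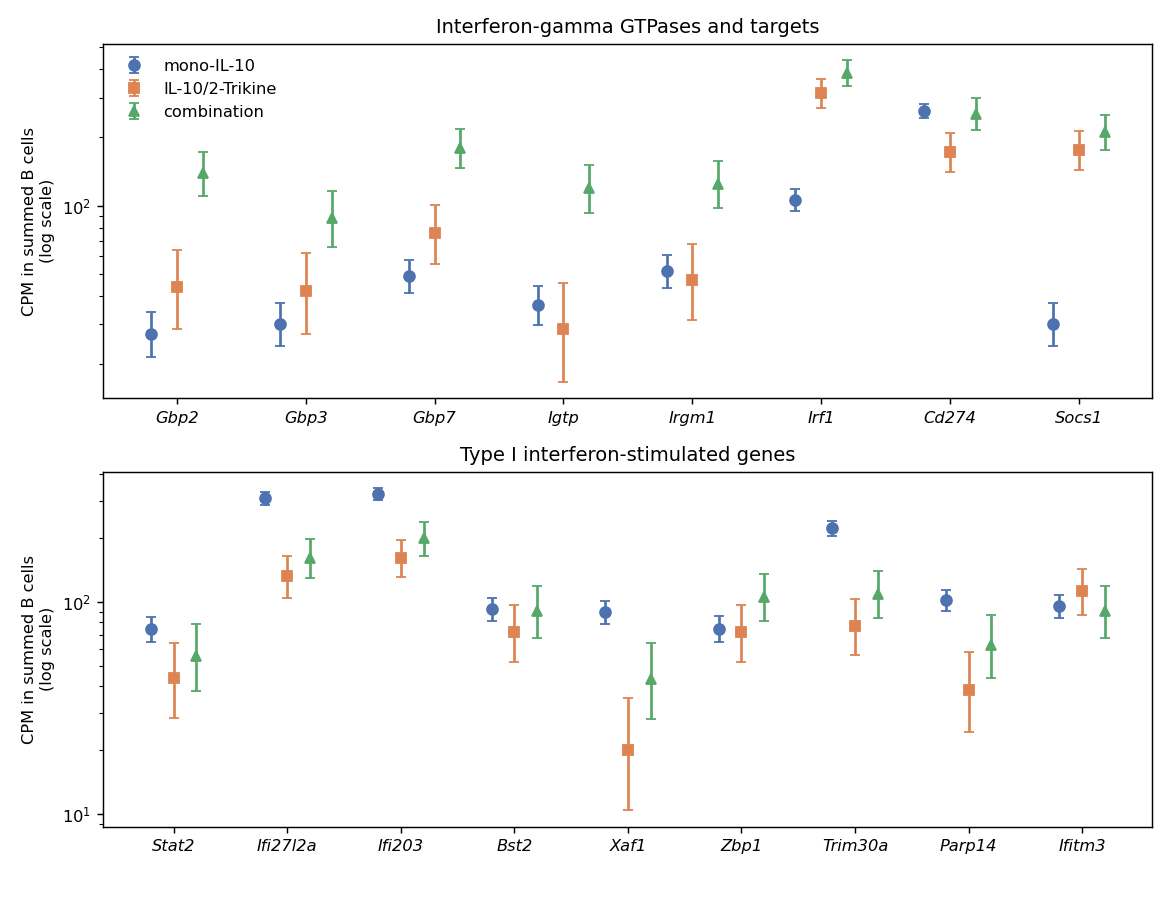
CPM of interferon-stimulated genes in the summed B cells of each library on a log scale, with exact 95% intervals that cover counting error only. Gbp2, Gbp7, Igtp and Irgm1 are highest in the combination, Irf1 and Socs1 are high in both IL-10/2-Trikine libraries, and Trim30a and Xaf1 are highest in mono-IL-10.

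Most measured type I interferon-stimulated genes stood highest in mono-IL-10 as CPM, with 1 above it in IL-10/2-Trikine and 2 above it in the combination. Of the 31 genes of the list 10 were measured, and for IL-10/2-Trikine over mono-IL-10 0 were at least 2-fold higher and 5 at least 2-fold lower (Ifi27l2a, Ifi203, Xaf1, Trim30a and Parp14), beside 3.31% and 7.7% of all genes, with a median of -0.89 beside -0.24. With TMM factors 2 were lower, and with genes down to 20 CPM 11 were. Xaf1, a proapoptotic gene, stood at 89.6, 20.1 and 43.3 CPM, and Trim30a, a ubiquitin ligase of the antiviral response, at 222.5, 77.1 and 109. Ifit3, an RNA-binding antiviral protein that was under the 50 CPM asked, was found in 68 cells of mono-IL-10, 1 of IL-10/2-Trikine and 6 of the combination. For the combination over mono-IL-10 the list had 0 genes higher and 2 lower (Xaf1 and Trim30a), beside 3.28% and 3.82% of all genes, with a median of -0.56 beside -0.10, and with TMM factors 0 lower and a median of -0.35. In the combination, 2 were higher than in IL-10/2-Trikine (Xaf1 among them) and 0 lower, beside 2.08% and 1.44% of all genes, with a median of 0.42 beside 0.15.

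Traf5, a signal adaptor of TNF receptors, stood at 129, 60.3 and 198 CPM, so IL-10/2-Trikine was the lowest library and the combination the highest. Mapre2, Mgat5, Lrmda and 1110038B12Rik had log2 ratios of 1.66 to 1.87 over IL-10/2-Trikine. In the combination 1 cell held 54.5% of the counts of 1110038B12Rik, 1 held 36.5% of Lrmda and 1 held 29.9% of Mgat5. Lrmda stood at 76.8, 25.1 and 90.1 CPM, below its 736, 197 and 502 in empty droplets. Mgat5 stood at 73.9, 31.8 and 116 CPM, below its 359, 129 and 225 there. Mapre2 and 1110038B12Rik lay above the empty droplets in the combination. The part of free RNA in these genes was not tested. Cxcl2, a neutrophil chemokine, stood at 136, 335 and 0 CPM, from 18, 8 and 0 cells, a ratio of at most 0.0155 for the combination over IL-10/2-Trikine against 3 counts in the library. Il1b, a myeloid cytokine, stood at 174, 501 and 154 CPM, below its 841, 639 and 613 CPM in empty droplets. The 5 neutrophil marker genes summed to 47.1, 117 and 12.1 CPM in B cells and moved with Cxcl2, and their part in it was not tested.

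No MHC class II or B cell receptor signalling gene was past 2-fold for the combination over IL-10/2-Trikine. All 10 class II genes had a ratio above 1 as CPM, with a median log2 ratio of 0.31 (0.15 with TMM factors) and 0 past 2-fold. So had 20 of the 22 receptor signalling genes, with a median of 0.34 (0.18 with TMM factors) and 0 past 2-fold. Of all genes 3.52% were past 2-fold, and their median was itself above 0, at 0.15 (-0.02 with TMM factors). The share of all genes with a ratio above 1 was not counted. The 8 B cell receptor chain genes had 0 higher and 2 lower (Iglc1 and Iglc3), beside 2.08% and 1.44% of all genes, with a median of -0.45. In IL-10/2-Trikine 1 cell held 94.2% of the Iglc1 counts and 1 cell held 55.7% of the Iglc3 counts. Without the Jchain-high cells Iglc1 was at 341 CPM in IL-10/2-Trikine and 162 in the combination. Iglc3 was then at 316 and 250 CPM, less than 2-fold apart. Without the Jchain-high cells H2-Aa was at 4461 and 4713 CPM in these libraries, a log2 ratio of 0.08 (-0.01 to 0.17). Activation genes had 1 higher (Egr3) and 1 lower (Fos) of 15, these counts beside 2.08% and 1.44% of all genes. Fos, an AP-1 factor, stood at 451, 312 and 140 CPM, a log2 ratio of -1.15 (-1.55 to -0.77).

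Since the libraries differed in their share of B cells with Ighd, the genes were also read in cells with an Ighd UMI (524, 69 and 64) and without one (107, 53 and 54) apart. S100a6 stood at 104, 1420 and 979 CPM in cells with Ighd and at 185, 1827 and 2852 in cells without. Cr2 stood at 435, 71.0 and 115 CPM in cells with Ighd and at 159, 9.12 and 28.4 in cells without. In both sets the order of mono-IL-10 against the others was as in all B cells.

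The cytokine and interferon genes were compared in the same way. Socs1 stood at 28.8, 220.5 and 246 CPM in cells with Ighd and at 33.5, 140 and 183 in cells without. Nr4a1 stood at 135, 478 and 449 CPM in cells with Ighd and at 71.4, 304 and 265 in cells without. Gbp2 stood at 28.8, 59.8 and 111 CPM in cells with Ighd and at 21.9, 30.4 and 161 in cells without, with the combination highest in both. In cells with Ighd its log2 ratio for the combination over IL-10/2-Trikine was 0.90 (-0.03 to 1.88), and that of Gbp3 was 0.24 (-0.69 to 1.18). Both were thus under 2-fold there, with intervals that include 0. In cells without Ighd these ratios were 2.41 (1.41 to 3.55) and 2.54 (1.15 to 4.27). Igtp and Irgm1 were also highest in the combination in both sets, while the order of mono-IL-10 and IL-10/2-Trikine was not that in all B cells for Irgm1 in either set or for Igtp in cells with Ighd. Cd274 was highest in mono-IL-10 in cells with Ighd (305, 202 and 223 CPM) and lowest there in cells without (127, 149 and 281). Trim30a differed between the sets: it was at 257, 89.7 and 84.5 CPM with Ighd and at 115, 66.9 and 130 without, so that the combination lay near mono-IL-10 in cells without Ighd and near IL-10/2-Trikine in cells with it. That difference between the sets was not tested.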

How the data were processed

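Cells were sorted on CD45 from KP1 tumors, and droplet-based single-cell RNA-seq was made with 3 libraries, 1 per group. The deposited matrices hold unnormalized UMI counts, made by the authors with Cell Ranger (version 8.0.0 per the file headers). The files list 33696 features and unfiltered barcodes. The sources disagree on the genome, naming GRCm39 in the methods and mm10 in the submitters' processing notes, so no coordinate is given from the files. Files held 158570946, 197176873 and 175794959 UMIs in mono-IL-10, IL-10/2-Trikine and the combination, and 22235, 22707 and 26967 barcodes were kept here, with medians of 4774, 5562 and 4273 UMIs. The study states fewer cells in each library under limits of the same size, so the denominators of the shares differ from its own.

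B cells were gated on raw counts, their UMIs were summed per library, and CPM was taken from the sums. With 1 library per group no test was run, and no p-value is given. Shares have exact (Clopper-Pearson) 95% intervals, ratios of counts have exact conditional binomial ones, and ratios of shares have approximate ones (normal on the log scale). UMIs remove PCR copies, but intervals and floors of 3 counts still cover counting error only. A gene was measured at a mean of 50 CPM or more. Genes named by rank are, per comparison, the 10 highest and 10 lowest log2 ratios, ordered by the interval bound nearest 0, outside mitochondrial, ribosomal protein, immunoglobulin variable, hemoglobin, sex-linked and gate genes. Genes of lists are named beside them, and Vim, which is outside both rules, was chosen after its values were seen. The B cells and the lists were chosen with earlier results of these data known. Clusters were found by Leiden's method at a resolution of 0.6, on a graph of 15 neighbors in 20 principal components of 1000 variable genes. A marker was counted for a cluster at 1.5-fold or more and in 10% or more of its cells. Scripts were tested on simulated counts with known folds. Python 3.11.15, scipy 1.17.1, scanpy 1.11.5 with its Scrublet, leidenalg 0.10.2, R 4.3.3 and edgeR 4.0.16 (for TMM factors) were used. A few genes, also of these lists and ranks, are not reported here.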

Additional observations from a re-analysis of the deposited data

How the results depend on the processing

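No paired analysis was possible because each group was 1 library, and for the same reason no replicate could be left out. Of 224 alternative values of shares and counts 153 stayed within the counting interval or within 1.5 times, 70 moved and 1 turned, and of 552 of named genes 504 kept direction and side of 2-fold, 35 fell below it and 13 turned. Leaving out B cells with other lineages' transcripts, restricting to cells with or without Ighd, and leaving out Jchain-high cells were chosen after seeing the data. The cause of each shift was not tested, except that a floor or a scaling changes which genes count by construction. The summed counts limit the IL-10/2-Trikine libraries most, which hold 122 and 118 B cells against 631, and where 3 counts are 5.03 and 5.20 CPM.

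The share ratio of IL-10/2-Trikine to mono-IL-10 was 0.153 with the gate after thinning, and that of the combination 0.202 without exclusions. Ratios of the Ighd share, 0.522 and 0.486, were 0.348 and 0.288 at 500 UMIs and 0.681 and 0.653 without thinning. For S100a6 with Vim, 12.1 became 5.54 without thinning and 12.5 (combination) became 24.6 at 500 UMIs. The ratio of Ccr7, 2.29, was 1.56 without thinning, and that of the plasma cell gate, 4.26, was 1.09 without thinning and 0.946 without called doublets.

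For IL-10/2-Trikine over mono-IL-10, 110 genes were higher, and 174 with thinned cells, 175 with TMM, 183 with median-of-ratios factors, 170 with immunoglobulin genes out of the total, 223 at a floor of 20 CPM and 1267 with no floor. Lower were 256, and 130 without called doublets, 151 without class-switched and plasma cell-gated cells, 161 with Ighd, 632 without Ighd, 153 without Jchain-high cells, 124 with TMM, 120 with median-of-ratios factors, 644 at 20 CPM and 1827 with no floor. Type I genes lower were 5, and 2 without doublets, with Ighd, without Ighd, with thinning, with TMM and with median-of-ratios factors, 3 without class-switched and plasma or without Jchain-high cells, 11 at 20 CPM and 22 with no floor. Plasma cell genes higher were 4, and 2 at a gate of 5 UMIs, 0 without doublets, without class-switched and plasma cells and with Ighd, 1 without Jchain-high cells and 7 with no floor. Follicular genes lower were 3, and 1 without Ighd. In those cells Ighd is 0 by choice, and Fcer2a, at 32.1, 0 and 3.16 CPM, was under the floor, so neither could be counted. The 5 receptor signalling genes lower stayed within 1.5 times under every alternative run.

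For the combination over IL-10/2-Trikine, 69 genes were higher, and 314 without Ighd, 302 with thinning, 35 with TMM, 38 with median-of-ratios factors, 304 at 20 CPM and 1336 with no floor. Lower were 48, and 26 without doublets, 31 without class-switched and plasma cells, 87 with Ighd, 105 without Ighd, 186 with thinning, 75 with TMM, 74 with median-of-ratios factors, 75 with immunoglobulin genes out, 162 at 20 CPM and 763 with no floor. Interferon-γ genes higher were 5, and 3 without doublets or without Ighd and 12 with no floor. In cells without Ighd, Gbp3 and Irgm1 were under the mean of 50 CPM asked and so not counted. Their log2 ratios there were 2.54 (1.15 to 4.27) and 1.64 (0.51 to 2.91). For the combination over mono-IL-10, 109 were higher, and 212 without Ighd, 201 with thinning, 227 at 20 CPM and 1350 with no floor, and 127 lower, and 335, 230, 359 and 1394 in turn. Interferon-γ genes higher were 7, and 11 with no floor.

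Log2 ratios of named genes that turned, for the combination over IL-10/2-Trikine, were Ighg3 (0.42) and H1f5 (0.0755) at a gate of 5 UMIs, Igha (-0.86), Ighg3 (0.37) and Ly6c2 (0.75) without doublets, Igha (-0.49) and Ighg3 (0.74) without other lineages, Ighg3 (0.99), Ighg2c (2.96) and Ighg2b (1.51) without Jchain-high cells, and H1f5 (0.37) with thinning. For IL-10/2-Trikine over mono-IL-10 in cells with Ighd they were Ighg3 (-0.16) and Iglc1 (-0.25).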

Other observations

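Transcripts of other lineages were also read in the B cells. The 8 NK cell genes summed to 155 CPM in mono-IL-10 B cells, 582 in IL-10/2-Trikine and 225 in the combination, against 5429, 12152 and 9990.0 in all other barcodes. The 6 conventional dendritic cell genes summed to 55.3, 10.1 and 22.5 CPM, with 6, 2 and 3 of them seen. Cd9, a tetraspanin of marginal zone and plasma cells, stood at 28.2, 107 and 60.6 CPM.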
